A study of Mus musculus with 300 samples.

Results

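Liver transcript levels were compared between the F2 and the F1 generation of a cross of 2 inbred mouse strains. F2 animals were the 282 mice whose titles give that generation, 135 labelled female and 147 labelled male, and F1 animals were the 6 so titled, of which 5 were used, 3 females (1150, 1149 and 1145) and 2 males (1151 and 1152). These 287 animals came from a series of 300, whose other members were 6 MRL/MpJ (MRL) and 6 SM/J (SM) mice, 3 of each sex, and the F1 library left out, titled 1146 and male. MRL mice had been crossed with SM males to give the F1, and F1 animals were intercrossed to give the F2. All mice were 13 weeks old, ate chow, were housed singly for 3 days and were fasted before dissection, with no treatment group. The labels state that F2 mice were tail-tipped when young and say nothing of this for the F1, so tail-tipping and generation cannot be told apart.

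Within a sex, F1 offspring of inbred strains are genetically alike: at every autosomal locus where the strains differ they carry an MRL and an SM allele. In the F2 these alleles segregate, so that an animal can be homozygous for MRL, heterozygous, or homozygous for SM at each locus. Where alleles act additively the F2 mean is expected to equal the F1 mean, and where the heterozygote lies off the midpoint the F2 mean is drawn toward the midpoint of the parents. In either case segregation adds to the spread among F2 animals. On the X chromosome the expectation differs, because F1 males of this cross carry only the MRL chromosome. MRL/MpJ is a large strain known for wound healing, and SM/J is a strain selected for small body size. Transcripts could not be assigned to genes or chromosomes here, so each is given by its Ensembl identifier, and no role is given.

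Each liver was hybridised to an Affymetrix Mouse Gene 1.0 ST array, giving 34406 transcript levels on a log2 scale on which 1 unit is a 2-fold difference. The number of arrays, 5 in the F1, limits the precision. The sex labels were checked with 116 transcripts that separated MRL and SM males from females by over 1 log2 unit, and set to -1 for the average parental female and to 1 for the average parental male. The library labelled F1 male 1146 scored -0.91 and was left out for that reason. In the F2, 8 libraries scored within 0.5 of 0 or on the far side of it. The SD over the transcripts of an array was 1.18 to 1.33 in F2 animals, against 1.31 in each of the 3 F1 females, 1.28 in F1 male 1151 and 1.22 in F1 male 1152.

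A second F1 library stood apart. In the parents alone, 68 transcripts were chosen whose MRL and SM means lay at least 8 SDs and 0.5 log2 units apart in each sex, and each animal was placed between those means. F1 animals, being heterozygous, are expected near the middle wherever alleles act additively. The share of the 68 transcripts at which an animal lay nearer a parental mean than the middle was 29.4% to 89.7% in F2 animals, with a median of 54.4%. It was 14.7% in F1 male 1151, 8.82% in F1 male 1152, 30.9% in F1 female 1149, 45.6% in F1 female 1150 and 63.2% in the library labelled F1 female 1145. In the 12 parental animals, in which the 68 were chosen, it was 97.1% to 100%, a value that this choice largely fixed. The 3 F1 females were thus above both F1 males, and only 1145 passed the F2 median. At 36 of the 60 transcripts where the mean of the other 4 F1 animals lay in the middle, 1145 lay near a parent. Some of the 68 had nearly equal positions in the F1 females, such as ENSMUST00000093406 and ENSMUST00000093407 (-0.017 and -0.013 in 1145, where SM is 0 and MRL is 1). Counts over the 68 may therefore not be counts of separate signals. The share in 1145 was reached or passed by 64 of 282 F2 animals, while 60 of 282 were at or below 45.6%, the highest share among the other 4 F1 animals. The library 1146 had 30.9% whether placed on the male or on the female scale.

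**Figure D1:**
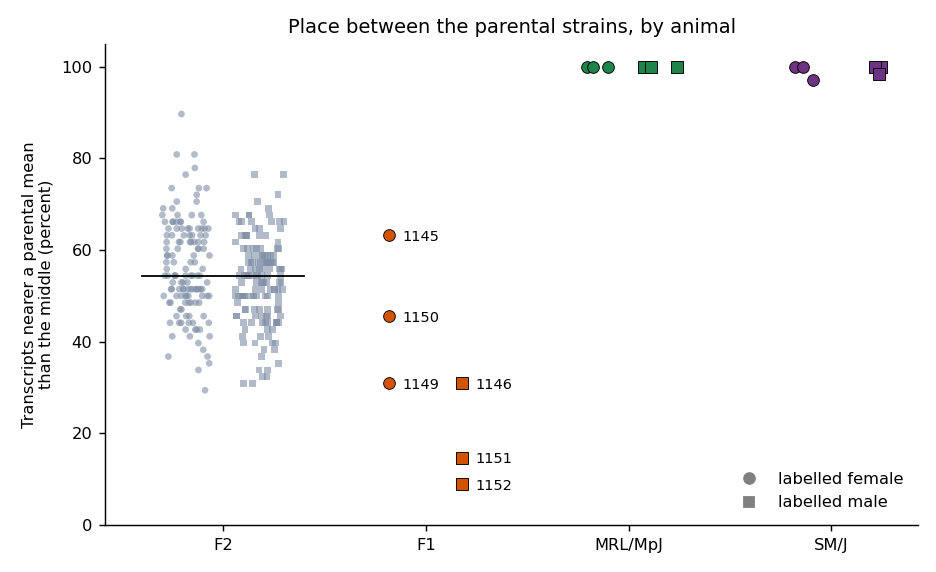
Share of 68 transcripts with a wide parental gap (percent, y axis) at which each animal lay nearer a parental mean than the middle, by generation or strain; each point is 1 animal and the bar is the F2 median of 54.4%. F1 males 1152 and 1151 lie below every F2 animal, F1 female 1145 lies above the F2 median, and 1146 is shown here although it was left out of the comparisons.

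A second measure was taken at strain-different transcripts. Of the 585 transcripts that differed by at least 0.5 log2 units between the strains (described below), the median F2 animal lay between the F2 quartiles of its sex at 49.7% in females and 49.2% in males. The share was 66.7% in F1 female 1149, 62.4% in F1 female 1150, 76.1% in F1 male 1151 and 64.4% in F1 male 1152, against 37.9% in 1145. In 1146 it was 49.4% against the quartiles of F2 males, and it was not taken against those of F2 females. Over all transcripts the lowest F1 share was instead that of 1152, at 37.3%, with 42.4% in 1145. Among the 5 F1 positions at the 68 transcripts, 1145 was the lowest or the highest at 44 and 1152 at 40. The library 1145 thus stood apart in its nearness to the parental levels at strain-different transcripts, and not over all transcripts. Batch 10, in which 1145 was run, also held 3 of the 8 F2 libraries with intermediate sex transcripts (2116, 2295 and 2308), and batch 11, which held 1146, had 2 (2328 and 2122). Results on spread are therefore given with and without 1145. Whether these arrays hold the RNA their labels name was not tested.

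The first comparison asked whether the mean level of a transcript differed between F2 and F1 animals. No transcript passed the threshold (0 of 34406, or 0%; limma, adjusted p under 0.05, sex as covariate, 282 F2 against 5 F1 animals). The lowest adjusted p was 0.678. At an unadjusted p under 0.05 stood 1346 transcripts (3.91%), 781 with the higher mean in F2 and 565 with the lower. The median absolute difference was 0.034 log2 units, and 76 transcripts (0.221%) differed by more than 0.25, 5 of them by more than 0.5. The 95% interval of the difference lay wholly within 0.25 log2 units of 0 for 93.6% of transcripts and within 0.5 for 99.5%. These shares are over all transcripts, and the interval was wider at the median strain-different transcript, as given below. With batch as a fixed term there was again no call, with 1011 transcripts at an unadjusted p under 0.05. That unadjusted count turned on single F1 animals, being 784 without 1150, 812 without 1149 and 4274 without 1152, with 0 calls in each case.

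**Figure D2:**
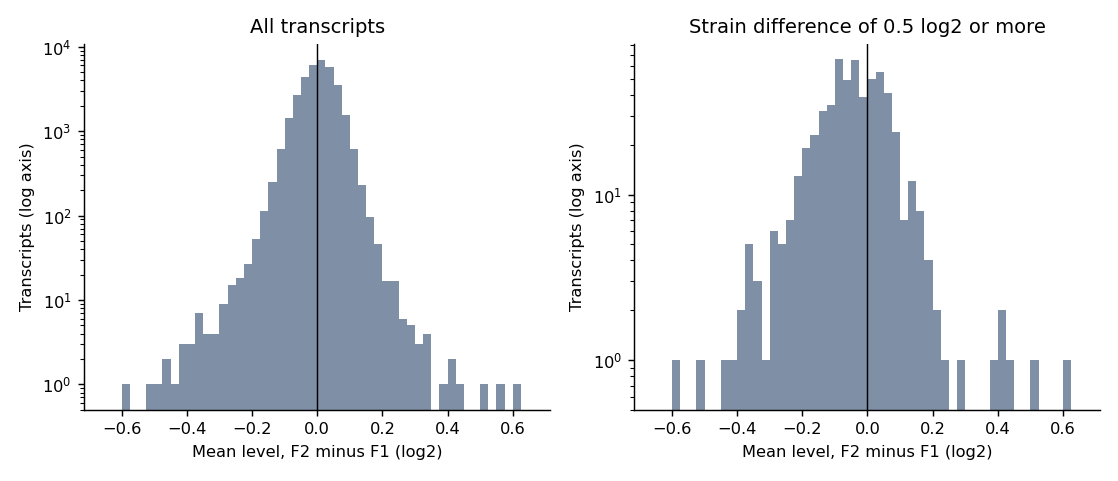
Histograms of the mean level in F2 minus F1 animals (log2 units, x axis; number of transcripts on a log axis, y axis) for all 34406 transcripts and for the 585 that differed by at least 0.5 log2 units between MRL and SM. The medians are 0.01 and -0.04, and no difference passes 0.602 in size.

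The question bears most on transcripts whose parents differ. In the 12 parental animals 3840 transcripts (11.2%) differed between MRL and SM (limma contrast averaged over the sexes, adjusted p under 0.05). Among them, 585 (1.7% of all transcripts) did so by at least 0.5 log2 units. Strain differences of opposite sign in the sexes can be missed by that contrast. Of the 585, the F2 mean lay nearer the MRL side than the F1 mean did at 275 and nearer the SM side at 310. By sign, the mean was lower in the F2 at 374 and higher at 211, with a median of -0.04 log2 units, against 15558 lower and 18848 higher with a median of 0.01 over all transcripts. An unadjusted p under 0.05 was reached by 18 of the 585 (3.08%), against 3.91% of all transcripts. The interval of the F2 minus F1 difference had a median half-width of 0.245 log2 units over the 585, against 0.096 over all transcripts. The mean difference was thus bounded less tightly at the 585 than over all transcripts. On a scale where SM is 0 and MRL is 1, the median position of the F2 mean was 0.497 (quartiles 0.417 and 0.580), and that of the F1 mean was 0.519 (quartiles 0.360 and 0.644). Both generations therefore lay close to the midpoint of the strains at the median transcript, and the F1 quartiles lay farther apart than the F2 quartiles. The F1 means rest on 5 animals and the F2 means on 282. At transcripts not called between the strains the F1 quartiles (-0.295 and 1.28) were also farther apart than those of the F2 (0.007 and 0.964). The part of sampling in this width was not tested.

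The transcripts nearest to a call all missed the threshold. ENSMUST00000109527 had 6.80, 7.17 and 7.63 log2 units as lowest, median and highest level in F2 females, against 7.65, 7.45 and 7.39 in F1 females 1150, 1149 and 1145. In males the F2 levels were 6.81, 7.23 and 7.87, against 7.62 and 7.39 in F1 males 1151 and 1152. The groups overlapped, with all 5 F1 animals above the F2 median of their sex: 127 of 135 F2 females and 119 of 147 F2 males lay below the lowest F1 animal of their sex. F2 minus F1 was -0.30 ± 0.07 (SE; limma adjusted p = 0.678), and the F1 animal of each of the 5 batches stood above the mean of F2 animals of its sex there, by 0.127 to 0.467. The transcript was not called different between the strains (limma adjusted p = 0.782), in a contrast averaged over the sexes. MRL and SM averaged 7.08 and 7.22 in females, and 7.49 and 7.28 in males, so the strain differences had opposite signs. ENSMUST00000034228 was lower in F2 by a like amount, at -0.26 ± 0.07 (limma adjusted p = 0.976). Its levels in F1 animals 1150, 1149, 1145, 1151 and 1152 were 7.58, 7.43, 7.32, 7.54 and 7.36, each close to that of ENSMUST00000109527. Whether these transcripts give separate signals was not tested.

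In the other direction ENSMUST00000084778 stood at 0.15 ± 0.04 and ENSMUST00000004655 at 0.12 ± 0.03 (F2 minus F1 with SE; limma adjusted p = 0.976 for each). At the second, F2 females had 5.31, 5.46 and 5.74 log2 units as lowest, median and highest level, all above the F1 females, which read 5.27, 5.28 and 5.27. The F2 males, at 5.31, 5.49 and 5.69, overlapped the F1 males at 5.46 each. The SD of the F1 females was 0.005, against 0.035 in MRL and 0.036 in SM females.

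Within females alone, 1 transcript (0.00291%) was called and 4862 stood at an unadjusted p under 0.05, 14.1% of all (2990 without 1149 and 2796 without 1145). ENSMUST00000012798 had 6.47, 6.69 and 6.92 log2 units as lowest, median and highest level in F2 females, against 6.43, 6.49 and 6.37 in F1 females 1150, 1149 and 1145. All but 1 of 135 F2 females lay above the 3 F1 females, and F2 minus F1 was 0.27 ± 0.05 (SE; limma adjusted p = 0.0495). With batch as a fixed term the limma adjusted p was 0.138, and the call was lost when any of the 3 F1 females was left out. Within males alone 0 transcripts (0%) were called by limma, and 1122 stood at an unadjusted p under 0.05, with only 2 F1 males (3174 without 1151 and 465 without 1152). The 3 F1 females shared array SDs near the upper end of the F2 range, as given above, and the part of that property in the female count was not tested.

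Next the difference between generations was compared between the sexes (the F2 minus F1 difference in males minus that in females). A single transcript was called (0.00291%), with 4107 at an unadjusted p under 0.05. The unadjusted count was 7459 without 1151, 635 without 1152 and 1286 with the array SD as a covariate. ENSMUST00000066650 had 6.64, 6.82 and 6.98 log2 units as lowest, median and highest level in F2 females, against 6.97, 6.95 and 7.04 in F1 females 1150, 1149 and 1145. In males the F2 levels were 6.66, 6.88 and 7.11, against 6.74 and 6.63 in F1 males 1151 and 1152. F1 females lay at the top of the F2 range and F1 males at its bottom: 130 of 135 F2 females were below all F1 females, and 139 of 147 F2 males were above both F1 males. The F2 minus F1 difference was -0.17 in females and 0.20 in males, and the interaction was 0.37 ± 0.07 (SE; limma adjusted p = 0.0385). The call ended with batch as a fixed term (limma adjusted p = 0.0837), with the array SD as a covariate (0.296) and when any of the 5 F1 animals was left out.

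Of the interactions that missed the threshold, ENSMUST00000115803 was at 0.55 ± 0.13 (SE; limma adjusted p = 0.338). F1 male 1152 read 7.69 log2 units, below all F2 males (lowest 7.91, median 8.38, highest 8.72), and F1 female 1145 read 8.82, above all F2 females (8.02, 8.44 and 8.71). F1 male 1151 at 8.34 and F1 females 1150 and 1149 at 8.52 each lay inside the F2 ranges. In the other direction ENSMUST00000107561 was at -0.37 ± 0.09 and ENSMUST00000065360 at -0.35 ± 0.08 (limma adjusted p = 0.312 for each).

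The 1146 library changed these counts. With it kept under its male label, 3 transcripts were called different in mean: ENSMUST00000091190, ENSMUST00000091194 and ENSMUST00000091197, with F2 minus F1 of 0.59, 0.56 and 0.57 log2 units. Each is high in males. ENSMUST00000091190 had 8.41, 9.15 and 9.62 as lowest, median and highest level in F2 males, against 9.14 and 8.91 in F1 males 1151 and 1152, and 1146 read 5.99. The F2 females were at 5.70, 5.96 and 8.38 (lowest, median and highest), and the F1 females at 5.86, 5.80 and 6.02. The level of 1146 thus lay in the female range at this transcript, and without it F2 minus F1 was 0.09 ± 0.09 (SE; limma adjusted p = 0.976).

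The second comparison asked whether F2 animals were more spread out than F1 animals of the same sex. For each transcript the variance within sex in the F2 was divided by that in the F1, which rests on 3 degrees of freedom. The median ratio over all transcripts was 1.49, against 1.26 that an F distribution of these degrees of freedom has at equal variances. The ratio was larger where the parental strains differ: its median was 1.46 over the 30566 transcripts not called between MRL and SM, 1.87 over the 3840 called, and 2.44 over the 585 with at least 0.5 log2 units. Over the 585, 35.2% had a ratio over 4, against 17.0% of all transcripts and 13.9% in the F distribution.

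F1 female 1145 was singled out above at strain-different transcripts, so leaving it out lowers the F1 variance there by that choice, and the larger ratios that follow are a description and support nothing. Without it the medians were 1.48, 2.49 and 5.00 in the same 3 sets, against 1.44 at equal variances with the remaining 2 degrees of freedom. The ratio then passed 4 at 58.8% of the 585 transcripts, against 22.0% of those not called and 22.1% in the F distribution.

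The order of the sets rested on the F1 males as long as 1145 was in. Without F1 male 1151 or 1152, which leaves the 3 females to carry the F1 variance, the median was 2.33 for the 585 and 2.49 for transcripts not called. Without 1149 or 1150 it was 2.45 or 2.85 for the 585, and 1.35 or 1.40 for those not called, below the value for equal variances. In females alone the median F2 over F1 ratio was 2.18 for the 585 and 2.38 for those not called, against 1.44 at equal variances. In males alone it was 8.00 for the 585 and 1.41 for those not called, against 2.19 at equal variances with a single degree of freedom in the F1. After batch effects estimated in the F2 were subtracted, the medians were 2.30 for the 585 and 1.26 for those not called, and 4.57 and 1.54 without 1145. The median of the 585 lay above the value for equal variances in each of these settings, while that of the other transcripts lay on either side of it.

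**Figure D3:**
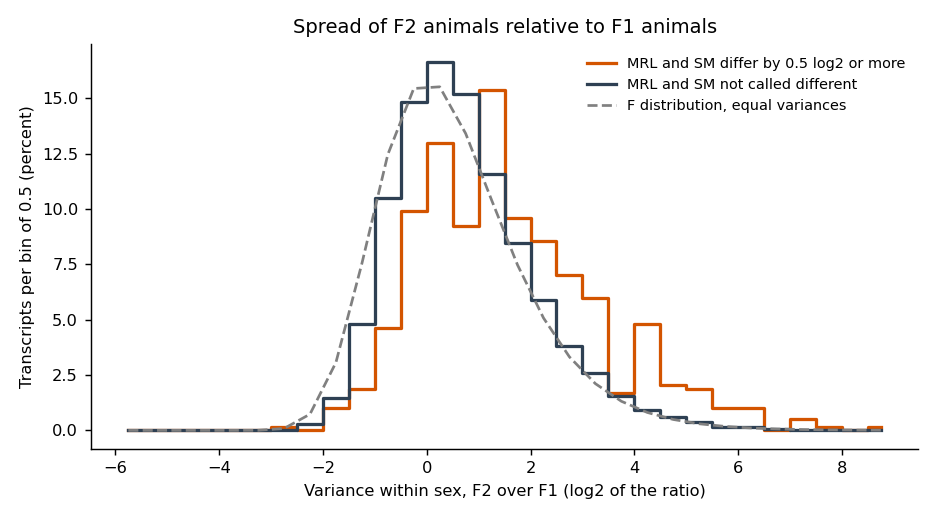
Distribution of the variance within sex in F2 over that in F1 animals (log2 of the ratio, x axis; percent of the set's transcripts per bin, y axis) for transcripts not called between MRL and SM and for the 585 that differed by at least 0.5 log2 units, with the F distribution of equal variances dashed. The line of the 585 lies to the right of the other lines.

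The parental animals, which are also genetically uniform within strain and sex, gave a like picture with more degrees of freedom. The median ratio of the F2 variance to that of MRL and SM animals was 1.48 over all transcripts, against 1.09 at equal variances, and 2.96 over the 585. That second value uses the parents that chose the set, so it is a description only.

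Transcript by transcript, 5 F1 animals could not carry a test: by the variance ratio with an F distribution and Benjamini-Hochberg adjustment, 0 transcripts were wider and 0 narrower in the F2, with 1102 and 351 at an unadjusted p under 0.05. With the 17 genetically uniform animals (5 F1, 6 MRL and 6 SM, each from its own group mean), 86 transcripts (0.25%) were wider and 17 (0.0494%) narrower in F2. Of the 86, 67 (77.9%) were among those called between the strains, which make up 11.2% of all transcripts. The parental variance enters both calls, so this share is a description. The median SD of the 86 was 0.326 log2 units in the F2, against 0.061 in the F1 and 0.078 in the parents, values that the choice of the 86 used. Over all transcripts these medians were 0.108, 0.089 and 0.089. Without 1145, 93 were wider, 64 of them among the 86, and 78 of the 93 were called between the strains. The limma test of absolute deviations, which was to be the main test of spread, gave 0 wider (0%) and 48 narrower (0.14%), with 1337 and 1567 at an unadjusted p under 0.05. These counts are not read, because in simulated data that test called transcripts whose spread was equal and recovered none that were made wider. Without the F1 males, 1 of the 48 was called again, and 0 of the 48 were called between the strains.

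ENSMUST00000101162 and ENSMUST00000112009 had the greatest difference of SDs among the 48, and by the F ratio over 17 animals neither passed the threshold (adjusted p = 0.740 and 0.185). Their values are given as a description. At ENSMUST00000101162 the F2 females ran between 4.94 and 5.85 log2 units and the F2 males between 4.92 and 5.93. The F1 females read 5.82 (1150), 5.28 (1149) and 5.17 (1145) and the F1 males 4.89 (1151) and 5.58 (1152), so the 5 F1 animals spread over most of the F2 range. The SD within sex was 0.194 in the F2, against 0.402 in the F1. At ENSMUST00000112009 the SD was 0.159 in the F2, against 0.336 in the F1.

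Of the transcripts nearest to a call as wider in F2 by the limma test, ENSMUST00000028938 missed that test's threshold (limma adjusted p = 0.279) and passed the F ratio over 17 animals (adjusted p = 1.21e-05). The F2 females had 8.79, 10.02 and 10.68 log2 units as lowest, median and highest level, against 10.09, 10.01 and 10.05 in F1 females 1150, 1149 and 1145. The F2 males had 8.66, 9.98 and 10.69, against 9.93 and 9.85 in F1 males 1151 and 1152. MRL females and males averaged 9.13 and 9.02, and SM females and males 10.43 and 10.47. The 5 F1 animals thus lay close together between the strains, nearer to SM, while F2 animals spanned both parental levels. In the F2 females 41 animals lay nearest the MRL mean, 67 nearest the F1 mean and 27 nearest the SM mean, and in the F2 males these were 38, 75 and 34. The SD within sex was 0.529 in the F2, against 0.045 in the F1 and 0.055 in the parents.

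ENSMUST00000116145, the other such transcript, also missed the threshold (limma adjusted p = 0.343). The F2 females had 6.34, 6.82 and 7.37 log2 units as lowest, median and highest level, against 6.65, 6.69 and 6.67 in F1 females, and the F2 males had 6.28, 6.85 and 7.32, against 6.75 and 6.76 in F1 males. The SD within sex was 0.219 in the F2, against 0.016 in the F1. The parents, however, had an SD of 0.242 and were not called different (limma adjusted p = 0.848), and the F ratio over 17 animals was 1.12 (adjusted p = 0.986).

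F2 SDs of at least 0.5 log2 units were found at 104 transcripts, 76 of them called between the strains. The F1 SD was under 0.5 times the F2 SD at 49 of the 104 (75 without 1145), the parental SD at 53, and both at 30 (46 without 1145). The F1 was wider than the F2 at 14 (9 without 1145). Over all 34406 transcripts the F1 SD was under 0.5 times the F2 SD at 5866 (8107 without 1145), the parental SD at 2105 and both at 558 (752 without 1145), and the F1 was wider at 10654 (11518 without 1145). The 104 were chosen for a wide F2, so these counts are a description. Some of the 104 had nearly equal values, such as ENSMUST00000113307 and ENSMUST00000113308 (F1 SD 0.724 and 0.736), and may not be separate signals. With growing F2 SD the share of transcripts called between the strains grew, being 3.13% where the F2 SD was under 0.1, 13.8% at 0.1 to 0.2, 35.5% at 0.2 to 0.3, 56.1% at 0.3 to 0.5 and 73.5% at 0.5 to 1, with 4 of the 6 transcripts above 1.

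The 6 transcripts with an F2 SD over 1 log2 unit, chosen after their values were seen, fell into several patterns. At ENSMUST00000078869 the F2 formed separate clusters. In F2 females 23 animals (17.0%; exact 95% binomial interval 11.1 to 24.5%) lay at or below 9.72 log2 units and the other 112 at or above 11.88. In F2 males 31 (21.1%; 14.8 to 28.6%) lay at or below 10.87 and 116 at or above 11.91. All F1 animals were in the high cluster, the females at 12.24, 12.30 and 12.62 and the males at 12.19 and 12.04. MRL animals were low, averaging 8.21 in females and 9.97 in males, while SM animals averaged 12.52 and 12.47. F1 animals thus stood beside SM rather than at the midpoint. F2 minus F1 was -0.52 ± 0.51 (SE; limma adjusted p = 0.976).

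At ENSMUST00000047134 MRL averaged 8.59 log2 units in females and 9.22 in males, and SM was the low parent, with 6.32 in each sex (means of 3 animals). In F2 males 39 animals (26.5%) lay at or below 7.08 and 108 at or above 7.88, and F1 males 1151 and 1152 were in the upper cluster at 9.00 and 8.49. In F2 females, whose lowest, median and highest levels were 6.10, 7.98 and 9.49, 37 (27.4%) lay at or below 6.77. F1 females 1150 and 1149 read 7.96 each. F1 female 1145 read 6.04, below all 135 F2 females and beside the 3 SM females (6.16, 6.44 and 6.36). The SD within sex was 1.07 in the F2, against 0.928 in the F1 with this animal and 0.251 without it. In its batch the F2 mean of females lay 1.65 above it.

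A pair of transcripts was wide in F2 females and low in males of every group. ENSMUST00000096418 had 6.41, 11.63 and 13.14 log2 units as lowest, median and highest level in F2 females, against 12.13, 12.06 and 12.18 in F1 females 1150, 1149 and 1145. F2 males had a median of 6.24, and F1 males read 6.22 and 6.23. The highest F2 male, at 12.13, was 2308, among the 8 libraries with intermediate sex transcripts. MRL females were close together, at 11.60, 11.82 and 11.38, while SM females differed among themselves, at 10.14, 9.93 and 7.06. ENSMUST00000086148 had 5.75, 10.25 and 11.35 in F2 females, against 9.72, 10.64 and 10.11 in F1 females. The MRL females averaged 7.52 and the SM females 10.51, and males of every group averaged under 6 (5.66 in F2). The highest F2 male, at 10.33, was again 2308.

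The other pair was not called between the strains in the contrast averaged over the sexes (limma adjusted p = 0.940 and 0.923). At ENSMUST00000030487 MRL and SM averaged 10.48 and 11.09 log2 units in females, and 10.47 and 10.00 in males. ENSMUST00000030487 had 6.60, 10.37 and 12.19 log2 units as lowest, median and highest level in F2 males, against 10.96 and 10.60 in F1 males, and 7.72, 11.05 and 12.56 in F2 females, against 10.43, 10.25 and 10.17 in F1 females. Its SD was 1.11 in the F2, against 0.185 in the F1 and 0.637 in the parents, and the F ratio over 17 animals missed the threshold (adjusted p = 0.394). ENSMUST00000099049 had an SD of 1.11 in the F2, against 0.638 in the F1 and 1.03 in the parents. Its uniform parental animals were thus about as spread out as the F2.

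**Figure D4:**
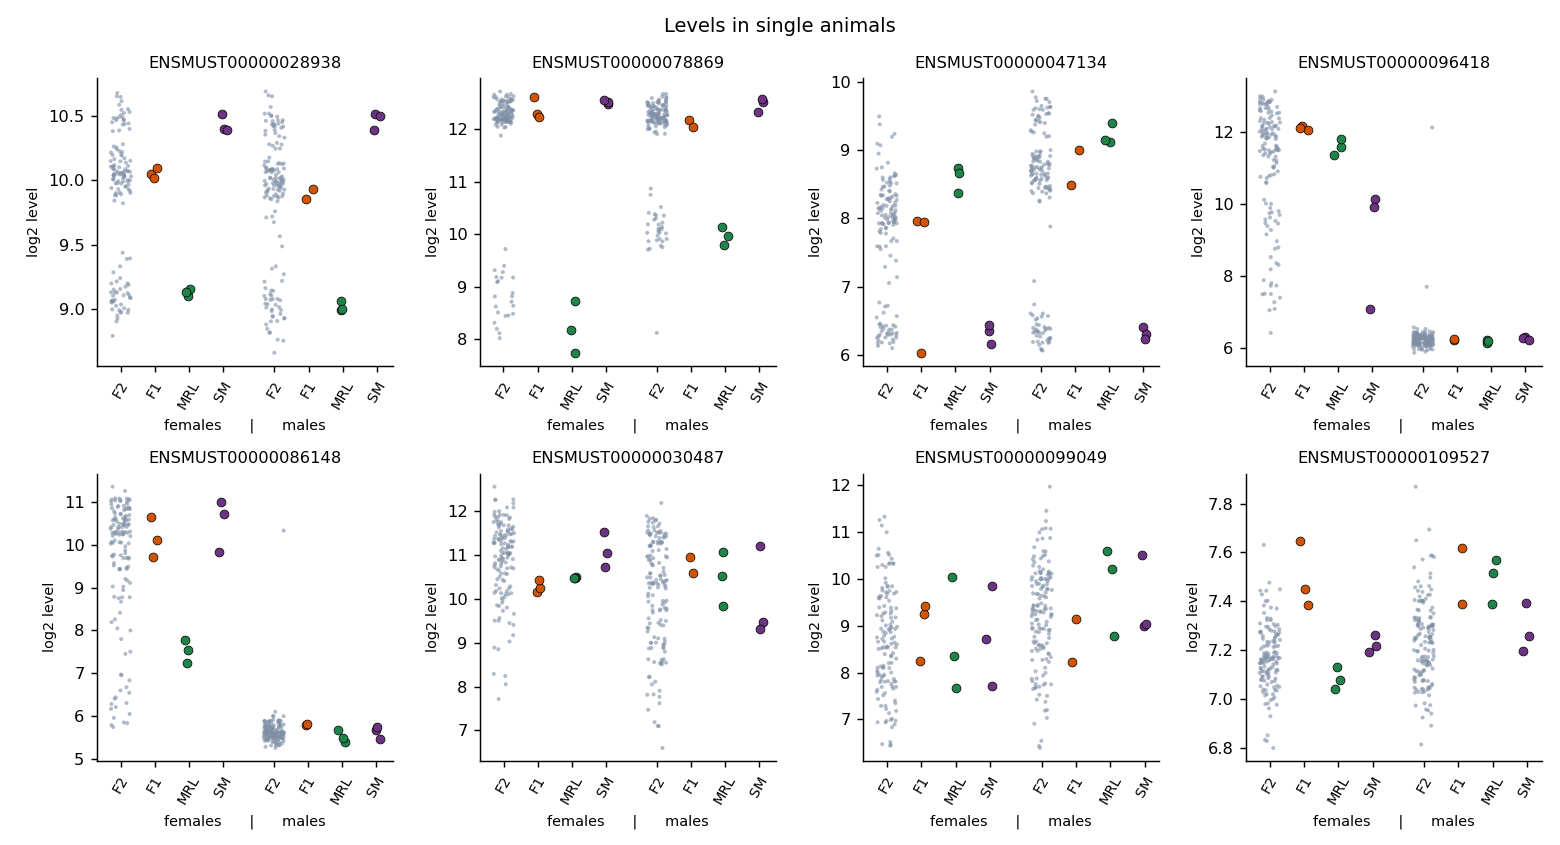
Levels (log2 units, y axis) of 8 transcripts in single animals, females left and males right in each panel, by generation or strain; each point is 1 animal. F2 animals form clusters at ENSMUST00000078869 and, in males, at ENSMUST00000047134, where the widest gap was 0.80 log2 units in F2 males and 0.28 in F2 females. At ENSMUST00000047134 1 F1 female (1145, at 6.04) lies beside the SM females. ENSMUST00000109527 is the transcript with the lowest p for the mean difference.

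The third comparison took the animal as the unit, so that the number of transcripts did not enter the test. For each animal the absolute deviation from the F2 mean of its sex was taken in units of the F2 SD, and the median over the 3840 transcripts called between the strains was divided by the median over the others. A ratio near 1 means that an animal departs from the F2 mean as far at strain-different transcripts as elsewhere. The ratio was 1.00 ± 0.11 in F2 animals (SD, n = 282), with a lowest, median and highest of 0.726, 1.01 and 1.34. It was 0.824 ± 0.074 in F1 animals (SD, n = 5), at 0.814, 0.780 and 0.905 in females 1150, 1149 and 1145 and at 0.891 and 0.731 in males 1151 and 1152. F2 minus F1 was 0.179 (two-sided permutation test within sex, 100000 resamples, p = 3.0e-04, adjusted over 5 measures 0.0015). The groups overlapped: all 5 F1 animals lay below the F2 median, and 55 of 282 F2 animals lay below the highest F1 animal of their sex. The parts of the ratio leaned in opposite directions: the mean over the 3840 was 0.604 in F1 and 0.671 in F2 animals, and over the others 0.739 and 0.680. Neither part alone passed the threshold (permutation p = 0.154 and 0.409). F1 male 1152, with the lowest F1 ratio, had an array SD of 1.22, as did F2 female 2079, with the lowest F2 ratio. An alternative subtracted a linear slope on the array SD, which cannot remove a pattern of low ratios at both ends. Beyond that alternative, the part of array spread was not tested. MRL and SM animals, whose values describe the sets they chose, had 1.38 ± 0.19 and 1.60 ± 0.23 (SD, n = 6 each).

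**Figure D5:**
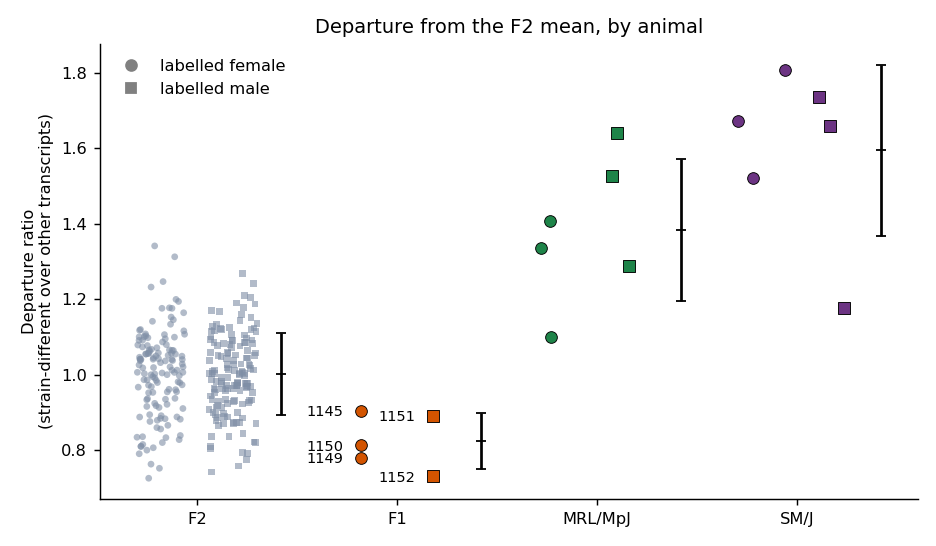
Departure from the F2 mean at transcripts that differ between MRL and SM over that at other transcripts (ratio without unit, y axis) for each animal, by generation or strain, with mean and SD beside the points. F1 animals, at 0.731 to 0.905, lie in the lower part of the F2 range of 0.726 to 1.34.

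With the 585 transcripts of at least 0.5 log2 units in place of the 3840, F2 minus F1 was 0.284 (permutation p = 0.00156, adjusted 0.00390), with 1.01 ± 0.20 in F2 animals (SD, n = 282), against 0.729 ± 0.194 in F1 animals (SD, n = 5). The numerator for the 585 alone also differed, by 0.130 (permutation p = 0.00753, adjusted 0.0125), while that for the 3840 alone was 0.068 higher in F2 (p = 0.154) and that for the other transcripts was -0.058 (p = 0.409); neither passed the threshold. Within batches, the F1 animal lay below all F2 animals of its sex for 1150 (9 F2 females), 1149 (13 F2 females) and 1152 (13 F2 males). For 1151, 2 of 11 F2 males of the batch lay below it, and for 1145, 5 of 11 F2 females did. The F2 mean of the batch exceeded the F1 animal by 0.189 for 1150, 0.229 for 1149, 0.243 for 1152, 0.117 for 1151 and 0.044 for 1145. Leaving out F1 animals in turn gave an F2 minus F1 difference of 0.157 without 1152 (permutation p = 0.00547), 0.167 without 1149 (p = 0.00289), 0.176 without 1150 (p = 0.00142), 0.197 without 1151 (p = 4.2e-04) and 0.199 without 1145 (p = 2.8e-04). The value without 1145 is fixed in direction by the way that animal was singled out. With 1146 kept under its male label the difference was 0.124 (permutation p = 0.00685).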

How the data were processed

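Liver RNA of single mice was hybridised to 1 array each, so replicates are separate animals. The deposited log2 values per Ensembl transcript were made by the authors with RMA in affy under R 2.11, per the submitters' processing notes; neither the Ensembl release nor the build is given in the sources used here. All 34406 transcripts were kept. None (0) is listed in the gene table used (GRCm38.p6), so gene lists, cell type markers and sequences were not applied, and liver markers were not checked. Groups follow the labels. Mean, interaction and strain differences were fitted with limma 3.58.1 in R 4.3.3 (lmFit, eBayes), with Benjamini-Hochberg adjustment and a threshold of 0.05. The mean fit with sex as covariate, the absolute-deviation test of spread and the variance ratios were tried on simulated data, where the absolute-deviation test failed. The fits by sex, the interaction, the strain contrast and the permutation test were not tried on simulated data. Named were 2 transcripts per direction and comparison, called with the greatest difference or else with the greatest t. The members and lists were chosen with earlier results of these data known. Alternatives covered libraries, batch, filters, array scaling and array spread; those added after seeing the data were spread without each F1 male, with the array SD slope subtracted, by sex and without 1145, and the parental-scale positions. F2 genotypes were not analysed here. Plots were made in matplotlib 3.10.9.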

Additional observations from a re-analysis of the deposited data

Results flagged for a closer look

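Among 25 values tested for a single F1 animal far from the others, 2 stood out, where chance marks about 1 group in 20. At ENSMUST00000047134 F1 female 1145 lay at -1.65 log2 units from the F2 mean of its sex, away from the other 4 F1 animals. At ENSMUST00000091197 F1 male 1152 lay at -0.38 from the F2 mean of its sex. At ENSMUST00000066650 the F2 minus F1 difference was 0.37 log2 units higher in males than in females, by the test of that difference itself (limma interaction).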

How the results depend on the processing

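The mean comparison had 0 calls in every alternative but 1: with library 1146 kept there were 3. The interaction count of 1 became 7 with 1146 kept and 0 with batch as a fixed term or the array SD as a covariate, and was 0 to 1 when F1 animals were left out in turn. The female count of 1 became 0 with batch as a fixed term and 0 when any F1 female was left out. The male count of 0 became 40 with 1146 kept and was 0 to 1 without an F1 male, the lone male then being assumed to vary like the F2 males. The spread count of 48 by absolute deviations was 92 with 1146 kept, 209 with batch effects subtracted, 343 for squared deviations, 124 (all wider) for their log2, 2 for deviations from the median, 2 above the median mean, 0 by the F ratio, 103 by the F ratio over 17 animals, and 21 to 338 with F1 animals left out in turn. The median variance ratio of 1.49 was 2.38 in females alone and 1.39 to 2.49 with F1 animals left out. The F2 minus F1 departure kept its direction and side of the threshold in all 11 alternatives (0.124 to 0.284; permutation p up to 0.00685). ENSMUST00000115803 passed for the interaction without F1 male 1151 (limma adjusted p = 0.00945). In the parents the fit with the animal number as a replicate block called 3804 transcripts, against 3840 without it; same-numbered parental animals of the strains deviated together in no steady way (correlations -0.08 to 0.22), and leaving out each animal gave 3025 to 4069. No paired analysis was possible for F2 against F1 because these groups share no animal numbers.

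The 5 F1 animals limit all comparisons, and the F1 variance rests on 3 degrees of freedom. Signal over background is not part of the values used, so no limit for low levels is given. The 5 F1 animals lay in 5 batches, 1 in each.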
